A study of Mus musculus with 2 samples.

Results

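The interleukin-1 (IL-1) family genes examined here were the 9 rows of each count matrix whose gene symbol was Il1a, Il1b, Il18, Il1rn, Il1r2, Il18bp, Il1r1, Il1rap or Il1rl1, of 31053 genes in all. They were measured in 2 droplet single-cell RNA libraries of conventional dendritic cells (cDCs), 1 library of lung cells sorted as XCR1+ (the cDC1 library) and 1 sorted as CD172a+ (the cDC2 library). Both came from the lungs of C57BL/6 mice aged 8 to 10 weeks in the steady state, with the tissue dissociated in dispase, and no treatment or allele is named for either group. How many mice each library pools was not stated in the labels. Because each sort gave 1 library, no replicate spread exists and no test was possible, so every interval below is a 95% interval for counting error only, and a gene is called higher or lower by size alone, at 2-fold or more.

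IL-1 alpha and IL-1 beta are pro-inflammatory cytokines that bind the receptor IL1R1, which then recruits the co-receptor IL1RAP and signals through MyD88. Several brakes act in the pathway: the receptor antagonist encoded by Il1rn occupies IL1R1 without signalling, the decoy receptor IL1R2 binds the cytokines without a signalling domain, and IL-18 binding protein traps IL-18. IL1RL1, also called ST2, is the receptor for IL-33, an alarmin of the lung epithelium and stroma, and it too pairs with IL1RAP. IL-1 beta and IL-18 are made as precursors that caspase-1 cuts in inflammasomes, so their mRNA is not a measure of secreted cytokine.

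By GENCODE annotation of GRCm38, Il1r2 (40074079 to 40125231), Il1r1 (40225080 to 40317257) and Il1rl1 (40429570 to 40465415) lie in the same orientation within 391 kb of chromosome 1. Il1a (129299610 to 129309972) and Il1b (129364570 to 129371139) are neighbours on chromosome 2, 54.6 kb apart, and the antagonist gene Il1rn (24336853 to 24351494) lies on the same chromosome. Il1rl1 has 5 annotated coding transcripts with different 3′ ends and Il1rn has 4. The counts used are summed per gene, so they cannot tell membrane-bound from soluble ST2, nor secreted from intracellular antagonist. Of the chromosome 1 receptors, Il1r2 and Il1r1 each overlap a predicted gene on the same strand, Gm37347 and Gm38070, with which reads could be shared.

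The sequences just upstream of Il1a and Il1b are shown because these neighbouring agonist genes did not keep 1 ratio across states, and that of Il1rl1 because it had the widest ratio between the resting states of the 2 libraries. Each is the 120 bases before the RefSeq transcription start on GRCm38.p6, 5′ to 3′ on the gene's own strand, with matched motifs in capitals. The windows are chr2:129309973-129310092 (minus strand) for Il1a, chr2:129371140-129371259 (minus strand) for Il1b and chr1:40429450-40429569 (plus strand) for the first RefSeq start of Il1rl1.
Il1a: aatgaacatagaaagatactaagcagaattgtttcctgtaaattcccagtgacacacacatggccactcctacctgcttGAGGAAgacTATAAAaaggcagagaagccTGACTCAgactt
Il1b: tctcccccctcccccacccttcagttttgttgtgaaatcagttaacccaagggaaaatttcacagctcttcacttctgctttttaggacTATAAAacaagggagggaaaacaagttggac
Il1rl1: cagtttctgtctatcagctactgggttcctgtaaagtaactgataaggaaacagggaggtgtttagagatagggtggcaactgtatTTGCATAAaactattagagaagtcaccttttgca
Both agonist genes carried TATAAA, at -32 to -27 from the start in Il1a and at -31 to -26 in Il1b. Within 250 bases upstream, on either strand, 12.4% of 32851 RefSeq promoters held that motif. Il1a also carried GAGGAA, the core bound by PU.1 (23.3% of promoters), and TGANTCA, the AP-1 site (6.75%). Il1rl1 carried TTGCNNAA, a C/EBP pattern found in 9.56% of promoters. The NF-kB consensus (3.90% of promoters) was matched among members only upstream of the second RefSeq start of Il1r1. These matches are descriptions of letters, not of binding.

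After filtering, the cDC1 library held 2574 cells and 35071861 unique molecular identifiers (UMIs, 1 per captured transcript), and the cDC2 library 2835 cells and 38613693 UMIs, with medians of 12866 and 12655 UMIs per cell. The libraries shared 6 cell barcodes before filtering and 5 after. Cells were assigned to states by marker gates that used no family member. In the cDC1 library these were resting cDC1 (1969 cells), Ccr7-positive cells low in Fscn1 (208), cycling cells (239) and mature cells with Fscn1 and Ccr7 (74). The cDC2 library held resting cDC2 (866), Ccr7-positive Fscn1-low (1173), cycling (282) and mature (49) cells. Cells of other kinds in it fell in gates for macrophages (161), a Cd7- and Plac8-positive state (83), monocytes (43) and neutrophils (32). By these gates 8 cells of the cDC1 library were resting cDC2 and 26 of the cDC2 library resting cDC1. The 9 cDC1 markers summed to 3191 UMIs per 1000000 (CPM) in the resting cDC1 and to 225 in the resting cDC2 compared below, and the 9 cDC2 markers to 77.1 and 4262.

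**Figure D1:**
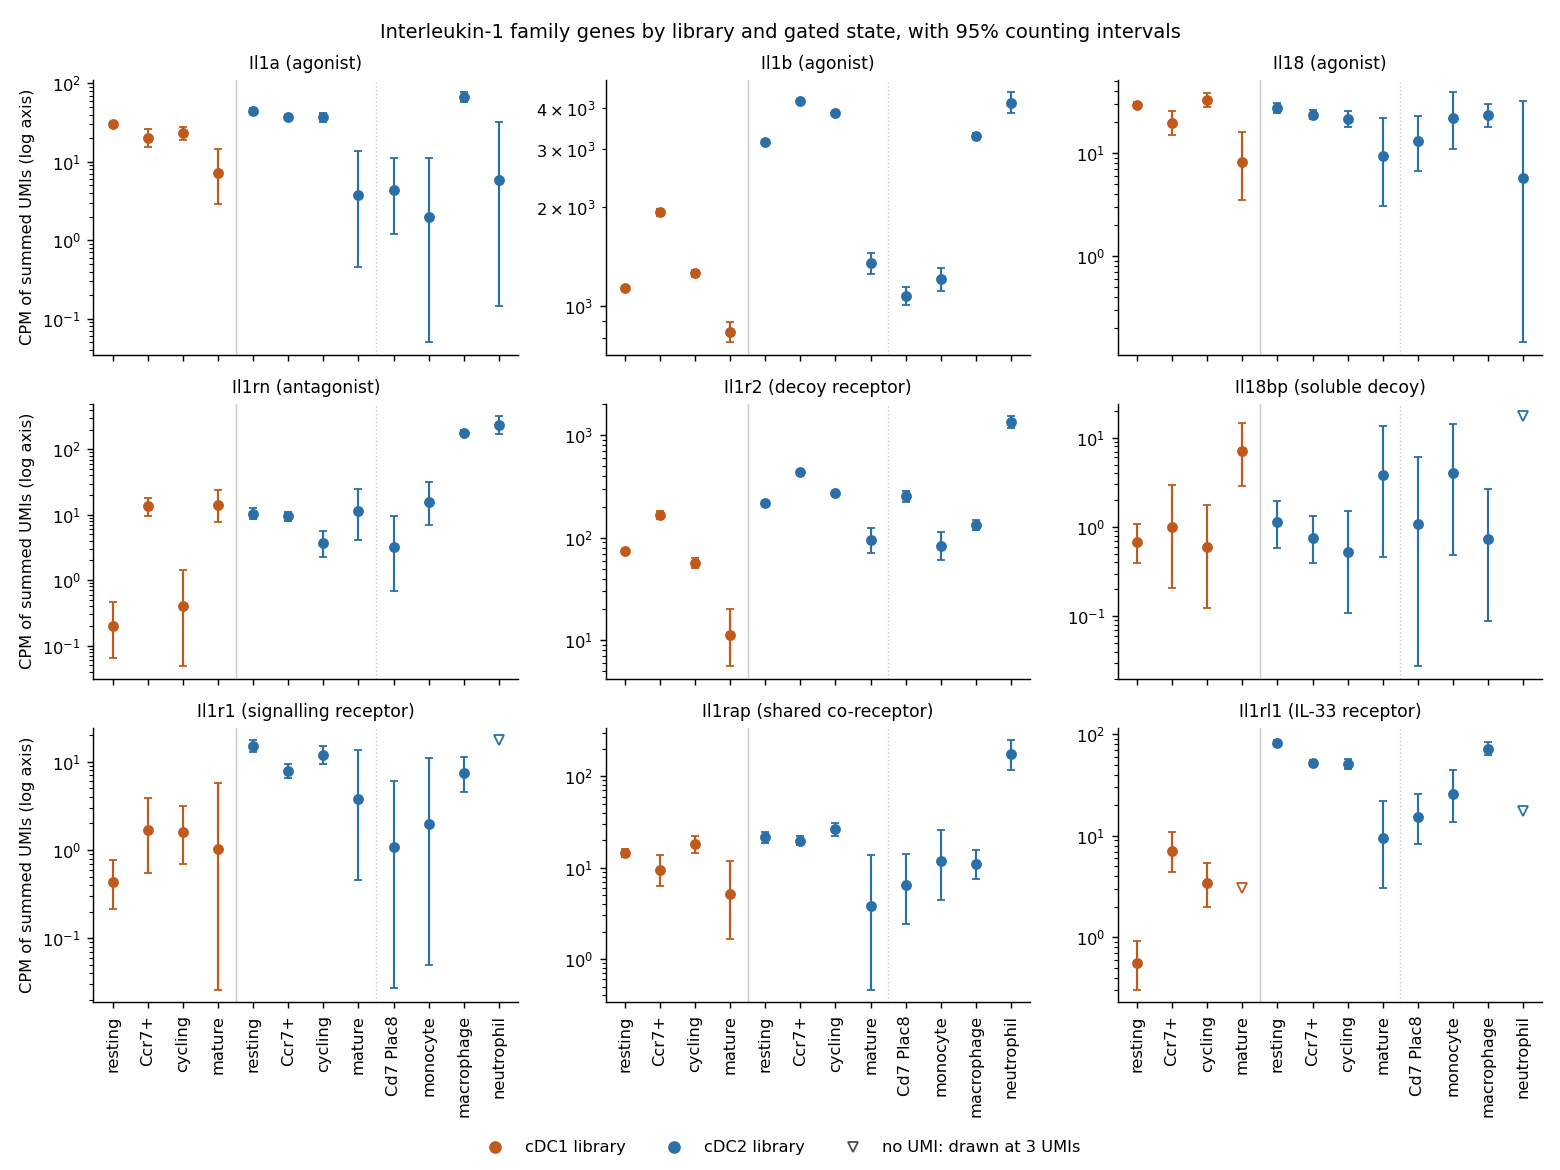
Level of each member as CPM of summed UMIs (log axis) in each gated state of the cDC1 library (orange) and the cDC2 library (blue), with 95% counting intervals; open triangles mark states with no UMI, drawn at the level of 3 UMIs. Il1b stood between 833 and 4189 CPM in all 12 states drawn, while Il1rn ranged from 0.198 CPM in resting cDC1 to 238 CPM in the neutrophil gate.

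Over all cells, 4 members were higher in the cDC2 library and none in the cDC1 library. The agonist gene Il1b stood at 3540 against 1232 CPM (2.87-fold, 2.84 to 2.90), the antagonist gene Il1rn at 21.7 against 3.91 CPM (5.56-fold, 4.64 to 6.71), and the decoy receptor gene Il1r2 at 310 against 80.3 CPM (3.86-fold, 3.71 to 4.03). The IL-33 receptor gene Il1rl1 stood at 58.9 against 2.05 CPM (28.7-fold, 22.7 to 36.8). Il1a (1.37-fold), Il18 (0.820-fold) and the co-receptor gene Il1rap (1.42-fold) lay within 2-fold. Il1r1 and Il18bp missed the minimum of 10 CPM in either library, so 7 of the 9 members were measured. The background over all 6610 genes measured was 7.79% higher in cDC2 cells and 5.51% lower, and the median log2 ratio was 0.05, against 1.52 over the 7 members. Sort and library cannot be told apart in this comparison.

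Between the resting states, 8 members were measured and 5 were higher in cDC2 (9.63% of all genes measured were higher and 6.19% lower). Among the agonists, Il1b stood at 3138 CPM in resting cDC2 (3105 to 3172) and 1132 CPM in resting cDC1 (1119 to 1145), a ratio of 2.77 (2.73 to 2.82). Il1a, whose product is active as a precursor and can signal from the cell surface, stood at 44.6 against 30.0 CPM (1.49-fold, 1.32 to 1.67). Il18 stood at 27.5 against 29.5 CPM (0.932-fold, 0.812 to 1.07). Of the 3 agonist genes, only Il1b passed 2-fold between the resting states.

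The antagonist gene Il1rn and the receptor genes Il1r1 and Il1rl1 were farther apart than the agonists, and the decoy was about as far apart as Il1b. The antagonist gene Il1rn had 5 UMIs over all 1969 resting cDC1, 0.198 CPM, against 111 UMIs and 10.4 CPM in resting cDC2, a 52.6-fold ratio (21.9 to 165). The 9 macrophage markers, all detected in both states, summed to 5.33 CPM in resting cDC1 and 275 CPM in resting cDC2. In dendritic cells of all states with none of those markers, Il1rn stood at 1.10 CPM in the cDC1 library (0.764 to 1.53) and 7.03 CPM in the cDC2 library (5.80 to 8.43). These cells differ from the resting cells in state as well as in markers. In the cDC1 library they held 35 Il1rn UMIs, against 5 in all resting cDC1. The part of macrophage markers in the resting ratio was not tested. The decoy Il1r2 stood at 220 CPM in resting cDC2 and 74.4 CPM in resting cDC1 (2.96-fold, 2.78 to 3.14). The signalling receptor gene Il1r1 had 161 UMIs in resting cDC2 (15.1 CPM) and 11 in resting cDC1 (0.435 CPM), a 34.7-fold ratio (18.9 to 70.8). Il1rl1 had 877 against 14 UMIs, 82.1 against 0.553 CPM, a 148-fold ratio (88.0 to 273). The co-receptor gene Il1rap, which both receptors need, stood at 21.5 against 14.5 CPM (1.49-fold, 1.26 to 1.76). Il18bp had 12 and 17 UMIs in the 2 states and was not measured. Thus the receptor genes Il1r1 and Il1rl1 were over 10-fold higher in resting cDC2, while that of their shared partner, Il1rap, lay within 2-fold. The 26 resting cDC1 found inside the cDC2 library carried Il1b at 298 CPM (241 to 365), Il1r2 at 127 CPM (90.7 to 173), Il1rl1 at 9.53 CPM on 3 UMIs, Il1r1 on 1 UMI and Il1rn on none. These 26 cells differed from the resting cDC1 of the XCR1 sort, where Il1b stood at 1132 CPM: their Cd7 and Plac8 UMIs summed to 505 CPM against 25.3 CPM. Within the cDC2 library the values of Il1b, Il1r2 and Il1rl1 in them stood below those in resting cDC2, with a wide interval for Il1rl1 (1.96 to 27.8).

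Shares of cells with a UMI were compared with each cell thinned to 2000 UMIs. Il1b was detected in 88.9% of 864 resting cDC2 (86.6 to 90.9) and 54.6% of 1967 resting cDC1 (52.3 to 56.8). Without thinning the shares were 96.8% and 78.2%. Il1rl1 was detected in 14.5% of thinned resting cDC2 (12.2 to 17.0) and 0.102% of thinned resting cDC1 (0.0123 to 0.367), and without thinning in 55.7% and 0.559%. For Il18 the thinned shares were 5.79% (4.33 to 7.56) and 5.29% (4.34 to 6.37), with overlapping intervals.

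B cells, which should lack dendritic transcripts, gave a reference for free RNA and undetected doublets. The 39 cells of the B cell gate in the cDC2 library had a median of 3797 UMIs against 12049 in resting cDC2. They were mixed in content: B cell markers summed to 3443 CPM, cDC2 markers to 2233 CPM and neutrophil markers to 1806 CPM. They carried Il1b at 1960 CPM (1814 to 2116), and 48.7% of them had an Il1b UMI after thinning (32.4 to 65.2). Il1b in resting cDC2 stood above this reference, whereas Il1b in the mature (1348 CPM), monocyte (1204 CPM) and Cd7 Plac8 (1076 CPM) gates did not. Other possible references in that library carried less Il1b or more. The 26 resting cDC1 stood at 298 CPM (241 to 365), below all of these gates. In its natural killer, T or innate lymphoid gate, 5 cells held 0.146% of all UMIs and 0.0366% of Il1b UMIs. By contrast, 9 cells of its fibroblast gate held 0.370% of all UMIs and 0.471% of Il1b UMIs. Its basophil or mast gate, with 2 cells, held 0.0730% and 0.0900%. Resting cDC2 held 27.7% of all UMIs and 24.5% of Il1b UMIs, so these 2 gates were richer in Il1b than resting cDC2. The references thus differed, and how much Il1b of any gate is free RNA or doublets was not tested.

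The other members had a like reference in these B-gated cells. Il1r2 stood at 148 CPM there (110 to 196), below its level in resting cDC2 but not below that of the macrophage (133 CPM), mature (94.7 CPM) and monocyte (83.5 CPM) gates. Il1rn stood at 14.8 CPM on 5 UMIs (4.81 to 34.6), so that Il1rn in the resting, Ccr7-positive, cycling, mature and Cd7 Plac8 cells of that library was not above it, and that of the monocyte gate (15.9 CPM) lay within its interval. Il1rl1 stood at 50.4 CPM on 17 UMIs (29.4 to 80.7), with 2.56% of cells positive after thinning (0.0649 to 13.5). Its interval took in Il1rl1 of the Ccr7-positive (52.1 CPM), cycling (51.3 CPM) and macrophage (72.2 CPM) gates, while resting cDC2 (82.1 CPM) lay just above it. In the 26 resting cDC1 of the cDC2 library, Il1rl1 stood lower than in the B-gated cells, at 9.53 CPM on 3 UMIs. Il1rn had no UMI in those 26 cells, and Il1r2 stood at 127 CPM, within its B-gate interval. In the XCR1 sort, 5 B-gated cells held 0.117% of all UMIs and 0.0856% of Il1b UMIs (37 UMIs), close to parity, whereas 10 cells of the natural killer, T or innate lymphoid gate held 0.110% of all UMIs and 0.00463% of Il1b UMIs (2 UMIs). These 2 references for the cDC1 library thus differed, and how much of its Il1b is free RNA or doublets was not tested.

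To set the other members against Il1b within a resting state, cells were ordered by their Il1b share and divided into 4 equal parts, so that the order of Il1b itself over the parts is given by construction. In resting cDC1 the lowest part carried Il1b at 10.0 CPM and the highest at 3264 CPM, with median depths between 12129 and 12789.5 UMIs over the parts. In resting cDC2 these levels were 445 and 6427 CPM. Within resting cDC1, Il1a stood at 19.9 CPM in the lowest Il1b part (16.5 to 23.7) and at 44.0 CPM in the highest (38.9 to 49.4), while Il18 stood at 30.5 and 29.7 CPM. Within resting cDC2, Il1a showed no such steady rise, at 39.8, 52.2, 39.5 and 46.9 CPM from the lowest Il1b part to the highest. The decoy Il1r2 stood at 70.1 CPM in the lowest Il1b part of resting cDC1 and 85.7 CPM in the highest. In resting cDC2 it stood at 151, 237, 253 and 237 CPM from the lowest Il1b part to the highest. Among thinned resting cDC1, 15.2% of cells with an Il1b UMI (13.1 to 17.5) and 10.4% of those without (8.48 to 12.6) had an Il1r2 UMI. In resting cDC2 these shares were 29.7% (26.5 to 33.1) and 18.8% (11.5 to 28.0). Il1rl1 was seen in 14.2% of resting cDC2 with an Il1b UMI and 16.7% of those without, with overlapping intervals.

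The balance of agonist to antagonist transcripts differed widely between states. Captured UMIs of different genes are not levels on 1 scale, so the ratio of UMIs is compared only between states. Il1a plus Il1b UMIs outnumbered Il1rn UMIs by 5882 to 1 in resting cDC1 (2520 to 18116) and by 306 to 1 in resting cDC2 (254 to 372). The ratio was 447 in Ccr7-positive cells of the cDC2 library (381 to 528) and 1069 in its cycling cells (699 to 1728). It was 58.7 in mature cells of the cDC1 library (34.8 to 108), resting on 14 Il1rn UMIs, and 119 in those of the cDC2 library (54.4 to 325), resting on 6. The macrophage gate (18.6, 17.0 to 20.4) and the neutrophil gate (17.4, 12.7 to 24.5) had the lowest ratios of the 12 states drawn, and their intervals overlapped. The 2 agonists did not keep 1 ratio either: Il1a UMIs over Il1b UMIs were 0.0265 in resting cDC1 (0.0246 to 0.0285), 0.0142 in resting cDC2 (0.0130 to 0.0156), 0.0203 in the macrophage gate and 0.00881 in Ccr7-positive cells of the cDC2 library. For IL-18 and its trap, Il18 over Il18bp UMIs were 43.9 in resting cDC1 (27.3 to 75.8) and 1.14 in mature cells of the cDC1 library (0.362 to 3.70), where 8 and 7 UMIs were counted.

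**Figure D2:**
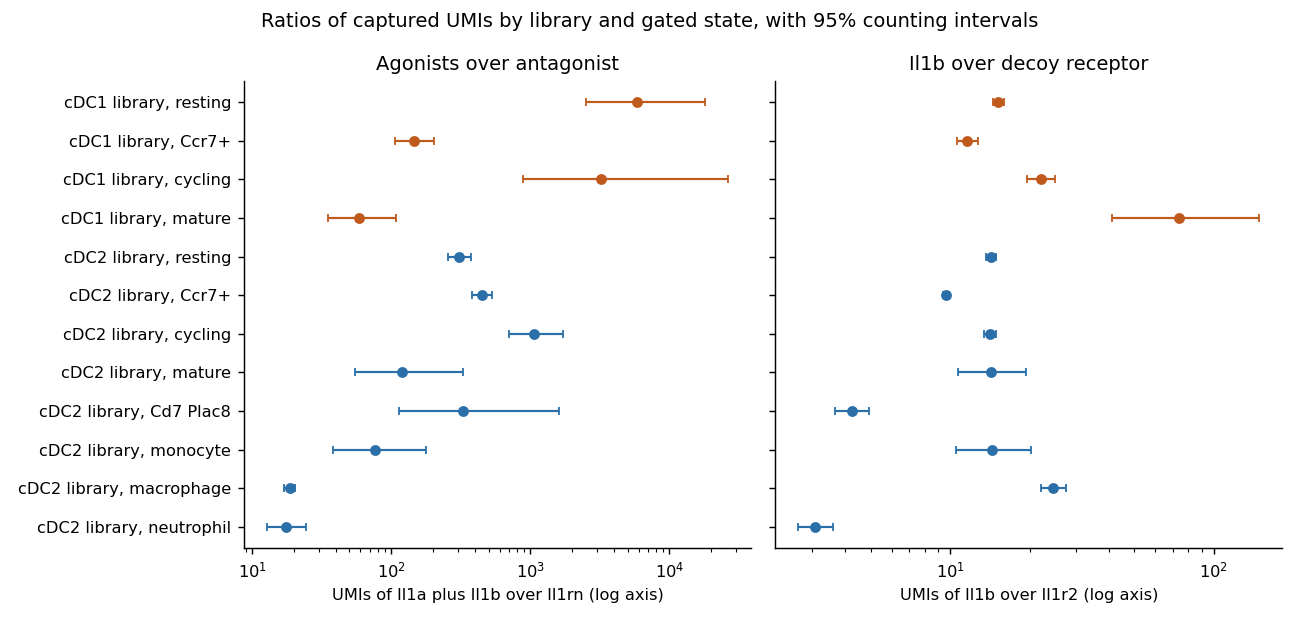
UMIs of Il1a plus Il1b over UMIs of Il1rn (left) and of Il1b over Il1r2 (right) in each gated state, on log axes, with 95% counting intervals, orange for the cDC1 library and blue for the cDC2 library. The antagonist ratio ran from 5882 in resting cDC1 to 17.4 in the neutrophil gate, whereas the decoy ratio of both resting states lay near 15.

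The decoy ratio did not follow the antagonist ratio. Il1b UMIs over Il1r2 UMIs were 15.2 in resting cDC1 (14.5 to 15.9) and 14.3 in resting cDC2 (13.7 to 14.9), although both genes differed between these states. The ratio was 11.6 in Ccr7-positive cells of the cDC1 library (10.6 to 12.8) and 9.63 in those of the cDC2 library (9.39 to 9.87). Mature cells of the cDC1 library stood highest, at 74.1 (41.2 to 149) on 11 Il1r2 UMIs, and the macrophage gate next, at 24.6 (22.2 to 27.4). Of the states drawn, the neutrophil gate stood lowest, at 3.07 (2.65 to 3.58). Signalling receptor over decoy, Il1r1 over Il1r2, was 0.0685 in resting cDC2 (0.0580 to 0.0804), 0.0180 in Ccr7-positive cells of that library (0.0149 to 0.0214) and 0.00584 in resting cDC1 (0.00291 to 0.0105).

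Over 50% of antagonist transcripts lay in the macrophage gate of each library. The macrophage gate held 5.68% of the cells of the cDC2 library and 7.03% of its UMIs, but 58.3% of its Il1rn UMIs (489 of 839). Among cells of the XCR1 sort, 11 macrophage-gated cells held 74 of 137 Il1rn UMIs, 54.0%. The gate of the cDC2 library was not free of dendritic markers: the 9 macrophage markers summed to 10696 CPM there, and the 9 cDC2 markers to 3741 CPM against 4262 in resting cDC2. The gate stood at 180 CPM of Il1rn (165 to 197) against 10.4 in resting cDC2, 17.3-fold higher (14.1 to 21.5). With 5 rather than 4 markers required of a macrophage, the ratio was 10.9 and Il1rn in the resting cDC2 gate 18.9 CPM. Of the 8 members measured, Il1rn was the only one higher in the macrophage gate (7.35% of genes higher, 2.20% lower). Il1b stood at 3285 against 3138 CPM, and Il1rl1 at 72.2 against 82.1 CPM. Il1r1 was lower (7.37 against 15.1 CPM, 2.05-fold), a call lost with 3 macrophage markers (1.60-fold). Without the cells gated to other types, Il1rn stood at 8.45 CPM in the cDC2 library and 1.79 CPM in the cDC1 library, 4.72-fold apart but below the minimum of 10 CPM.

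From 2 macrophage markers upward, Il1rn stood higher in cells with more of them, below the gate as well as above it. Cells of the cDC2 library with 0, 1, 2 and 3 of 9 markers carried Il1rn at 7.03, 6.66, 11.0 and 39.4 CPM, those with 4 or 5 at 119 CPM and those with 6 or more at 257 CPM. Over the same steps Il1b stayed between 3098 and 4175 CPM. Il1r2 went from 329 to 63.8 CPM, and Flt3, the growth factor receptor of dendritic cells, from 90.0 to 10.8 CPM. Il1rl1 stayed between 56.4 and 73.7 CPM. Median depth also grew along these steps, from 12498 to 17472 UMIs per cell, and its part in the marker count was not tested.

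**Figure D3:**
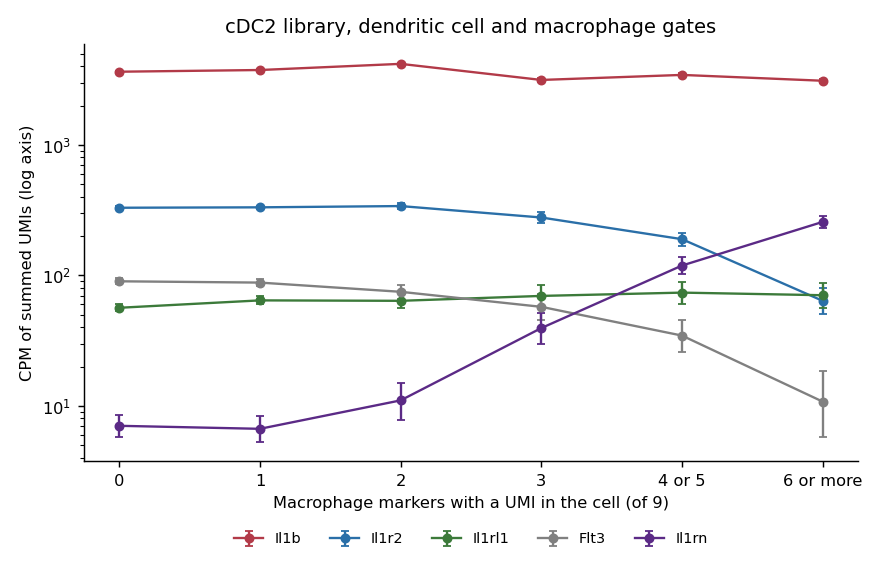
CPM of summed UMIs (log axis) in dendritic and macrophage gates of the cDC2 library, by the number of macrophage markers with a UMI in the cell, with 95% counting intervals. Il1rn runs from 7.03 to 257 CPM while Il1r2 runs from 329 to 63.8 CPM and Il1b stays between 3098 and 4175 CPM.

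Among resting cDC2, 523 cells with an Mrc1 UMI and 343 without differed in Il1rn alone by the 2-fold rule (1.21% of genes higher, 0.382% lower). Il1rn stood at 13.8 CPM with Mrc1 (94 UMIs) and 4.39 CPM without (17 UMIs), 3.14-fold higher (1.86 to 5.62). The 9 macrophage markers, all detected in both groups, summed to 387 and 77.7 CPM, and their part in the difference was not tested. Il1rl1 stood at 92.8 against 63.3 CPM (1.47-fold, 1.26 to 1.71) and Il1r2 at 186 against 280 CPM (0.663-fold, 0.611 to 0.720).

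The antagonist and the decoy were both higher in the neutrophil gate, which held 32 cells of median depth 2706 UMIs. There the decoy Il1r2 stood at 1348 CPM (1180 to 1533), 6.13-fold above resting cDC2, Il1rn at 238 CPM (171 to 323), 22.9-fold above, and Il1rap at 174 CPM (118 to 249), 8.10-fold above. Il1rn was 12.6-fold above with 5 macrophage markers required in the macrophage gate. Il1a and Il18 had 1 UMI each and counted as lower, by 7.68-fold (1.37 to 304) and 4.74-fold (0.844 to 188). Il1rl1 had no UMI, a level at least 4.71-fold lower than in resting cDC2 at a floor of 3 counts. Il1b stood at 4143 CPM, within 2-fold of resting cDC2. Il1r1 had no UMI either and gave no ratio at that floor. Thus, of the 8 members measured, 3 were higher and 3 lower, against 28.1% and 17.1% of all genes measured. The floor of 3 counts stands for 17.4 CPM in this gate, and the calls of Il1a and Il18 lie below it, at 5.81 CPM each. The 7 neutrophil markers summed to 89265 CPM in this gate, but the 9 cDC2 markers also reached 2080 CPM there, and their part was not tested.

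In the monocyte gate, 5 of 8 members were lower than in resting cDC2 (7.40% of genes lower, 18.5% higher): Il1a, Il1b, Il1r2, Il1r1 and Il1rl1. Il1b stood there at 1204 CPM (1110 to 1304) and Il1rl1 at 25.8 CPM on 13 UMIs, while Il1a and Il1r1 had 1 UMI each, 22.5-fold (4.01 to 889) and 7.58-fold (1.34 to 301) lower. In the Cd7 Plac8 gate, 7 of 8 members were lower (6.50% of genes lower, 9.30% higher), all but the decoy Il1r2, which stood at 254 CPM (222 to 289) against 220. Il1b stood at 1076 CPM in that gate, 2.92-fold lower, and Il1a at 4.36 CPM, 10.2-fold lower on 4 UMIs. Its Il1b to Il1r2 UMI ratio was 4.24 (3.67 to 4.91).

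Ccr7 marks dendritic cells that are leaving the tissue for the lymph node. In the cDC2 library, Ccr7-positive Fscn1-low cells had no member past 2-fold relative to resting cDC2 (0.759% of genes higher, 1.36% lower). Il1r2 came nearest, at 435 CPM (425 to 446) against 220, a ratio of 1.98 (1.89 to 2.07), and passed the rule at 2.00 when 3 Ccr7 UMIs were required. Il1b stood at 4189 CPM against 3138 (1.33-fold). Both receptors stood lower without passing the rule: Il1r1 at 7.81 against 15.1 CPM (0.518-fold, 0.407 to 0.659) and Il1rl1 at 52.1 against 82.1 CPM (0.635-fold, 0.577 to 0.699). Il1rn stood at 9.45 against 10.4 CPM.

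The same members varied with the Ccr7 level of a cell. In the cDC2 library Il1r2 stood at 209 CPM in cells without Ccr7 and at 247, 283, 399 and 474 CPM in cells with up to 1, over 1 to 2, over 2 to 5 and over 5 Ccr7 UMIs per 10000. Il1rl1 stood at 84.3 CPM without Ccr7, between 73.3 and 74.2 CPM in the middle steps and at 42.2 CPM in the highest. Il1r1 stood at 14.2 CPM without Ccr7 and 6.71 CPM in the highest step. Among cells of the XCR1 sort, Il1r2 stood at 74.3 CPM without Ccr7 and at 73.7, 134, 132 and 191 CPM over the steps, and Il1b ran from 1124 CPM without Ccr7 to 2210 CPM at over 2 to 5 and 1953 CPM in the highest step. Median depth was between 11868.5 and 14688 UMIs in all of these steps. The 9 cDC2 markers summed to 624 CPM in Ccr7-positive Fscn1-low cells of the cDC1 library and to 77.1 CPM in its resting cDC1. The steps were not redone without cells that had at least as many cDC2 as cDC1 markers. The part of those cells in the steps of the cDC1 library was not tested.

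**Figure D4:**
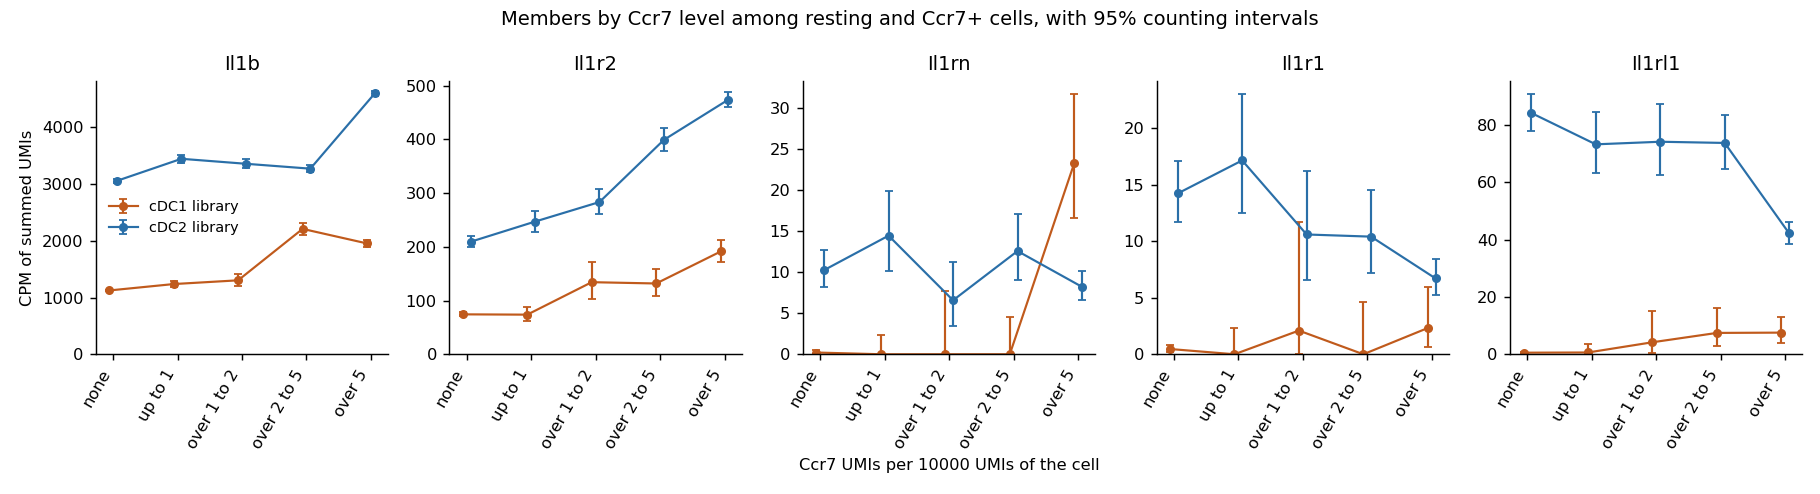
CPM of summed UMIs of 5 members in resting and Ccr7-positive Fscn1-low cells, by Ccr7 UMIs per 10000 UMIs of the cell, with 95% counting intervals, orange for the cDC1 library and blue for the cDC2 library. Il1r2 is highest in the highest Ccr7 step of both libraries (474 and 191 CPM), whereas Il1rl1 of the cDC2 library is lowest there (42.2 CPM). The steps of the cDC1 library include cells with at least as many cDC2 as cDC1 markers.

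Ccr7-positive Fscn1-low cells of the cDC1 library had 2 members higher than resting cDC1 (5.73% of genes higher, 4.61% lower). Il1r2 stood at 166 CPM against 74.4 (2.23-fold, 2.01 to 2.46), and Il1rn at 13.5 CPM on 40 UMIs in 12 cells against 0.198. The 9 cDC2 markers summed to 624 CPM in these cells and to 77.1 CPM in resting cDC1. The macrophage markers summed to 44.1 and 5.33 CPM, and their part in the Il1rn difference was not tested. In the 176 of the 208 cells with more cDC1 than cDC2 markers, Il1r2 stood at 99.0 CPM, 1.33-fold above resting cDC1. In those cells Il1rn stood at 9.18 CPM on 23 UMIs, below the minimum of 10 CPM, and Il1rl1 had 4 UMIs rather than 21. The Il1r2 call therefore rested on cells with at least as many cDC2 as cDC1 markers, a selection made after the data were seen. Requiring 1 Ccr7 UMI rather than 2 also ended both calls, with Il1r2 at 1.82-fold and Il1rn at 8.69 CPM. All 40 Il1rn UMIs of these cells lay in the highest Ccr7 step.

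Mature cells, which carry the Fscn1, Ccr7 and Cacnb3 program of activated migratory dendritic cells, had lower levels of most of the family. The cDC2 markers summed to 992 CPM and the cDC1 markers to 326 CPM in the mature gate of the cDC2 library, and to 77.7 and 1220 CPM in that of the cDC1 library. In the cDC2 library, 7 of 8 members measured were lower than in resting cDC2 (16.7% of genes lower, 15.2% higher). The antagonist Il1rn alone was within 2-fold (11.4 against 10.4 CPM), on 6 UMIs, and the interval of its ratio was wide (1.09, 0.393 to 2.46). Il1b stood at 1348 CPM (1251 to 1451) against 3138, 2.33-fold lower, and Il1a at 3.79 CPM against 44.6 on 2 UMIs, 11.8-fold lower (3.25 to 97.6). Il18 stood at 9.47 against 27.5 CPM, 2.91-fold lower (1.23 to 9.02). Il1rl1 was 8.67-fold lower (3.70 to 26.8), with 5 UMIs, and 37.4-fold lower, with 1 UMI, when Fscn1 was required at 10 per 10000. Il1rap and Il1r1 had 2 UMIs each and were 5.68-fold (1.56 to 47.2) and 3.98-fold (1.08 to 33.1) lower. Il1r2 stood at 94.7 CPM, 2.32-fold lower (1.76 to 3.14), but 22 of its 50 UMIs came from 1 mature cell that carried 4 or more markers of both dendritic identities, and without such cells it was 3.96-fold lower.

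Of the 6 members measured in the cDC1 library, 4 were lower in mature than in resting cells and 1 was higher (15.3% of genes lower, 16.0% higher). The decoy Il1r2 stood at 11.2 CPM (5.61 to 20.1) against 74.4, 6.62-fold lower (3.69 to 13.3). Il1a was 4.19-fold lower on 7 UMIs, Il18 3.61-fold lower on 8 and Il1rap 2.83-fold lower on 5. Il1b stood at 833 CPM (777 to 892) against 1132, a ratio of 0.736 (0.685 to 0.789), and lay within 2-fold. Il1rn was the member called higher, with 14 UMIs in 7 of 74 mature cells (14.3 CPM, 7.82 to 24.0) against 5 UMIs in 1969 resting cells. Il1rn fell below the minimum of 10 CPM in the 63 mature cells with more cDC1 than cDC2 markers (5 UMIs, 5.85 CPM) and at a limit of 5% mitochondrial UMIs (4 UMIs, 5.73 CPM). The median log2 ratio over the members was -1.68 for cDC1 cells and -1.77 for cDC2 cells, against 0.02 and 0.03 over all genes measured. The 2 mature contrasts share no cells.

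Set against Ccr7-positive Fscn1-low cells instead, mature cells had 6 of 7 members lower in the cDC2 library (12.1% of genes lower, 18.2% higher) and 4 of 5 in the cDC1 library (10.8% lower, 14.1% higher). The decoy Il1r2, which stood highest of the dendritic states in Ccr7-positive cells, was 4.60-fold lower in mature cells of the cDC2 library (3.48 to 6.20) and 14.7-fold lower in those of the cDC1 library (8.16 to 29.7). Il1b was 3.11-fold (2.89 to 3.35) and 2.31-fold (2.15 to 2.49) lower. Il1rn lay within 2-fold in both, on 6 and 14 UMIs. This contrast was not redone without the cells carrying markers of both dendritic identities, whose removal changed the Il1r2 ratios against resting cells.

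**Figure D5:**
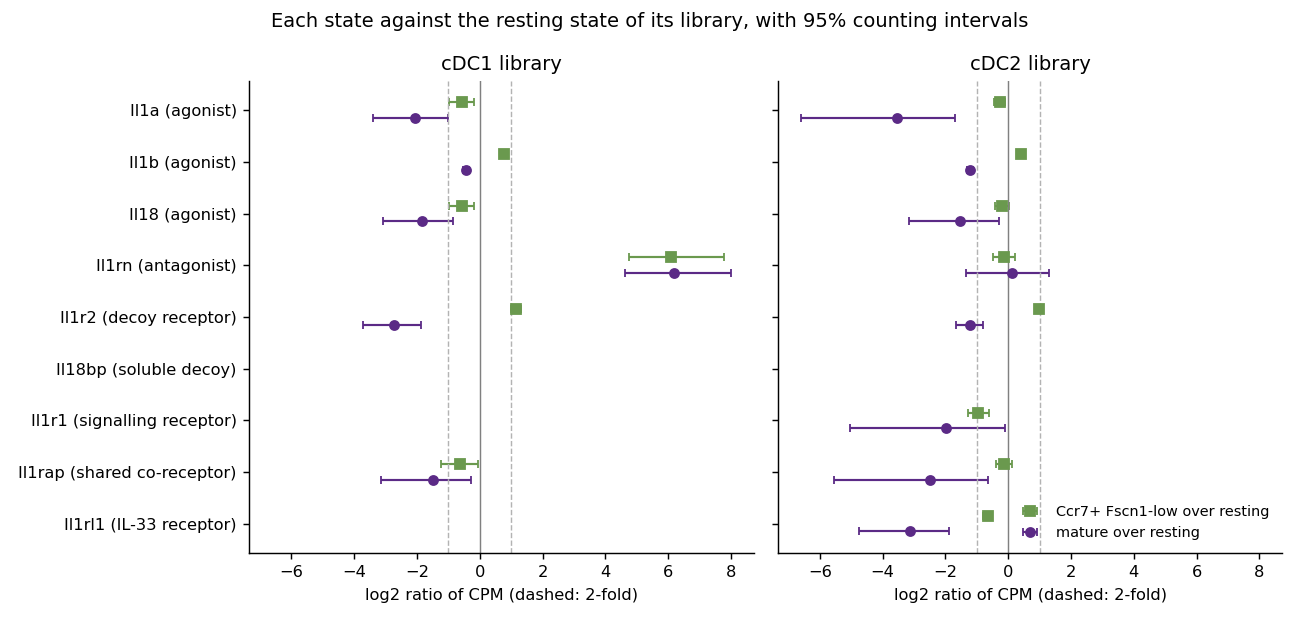
Log2 ratio of CPM of each measured member in mature cells (purple circles) and Ccr7-positive Fscn1-low cells (green squares) over the resting cells of the same library, with 95% counting intervals; dashed lines mark 2-fold. In mature cells of the cDC2 library, 7 of 8 members lie below -1, and Il1rn lies at 0.13, on 6 UMIs.

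Between the mature gates of the libraries, 3 members were measured, and Il1r2 was higher in the cDC2 library (94.7 against 11.2 CPM, 8.42-fold, 4.33 to 17.9), where 11.6% of genes were higher and 8.10% lower. Il1b stood at 1348 against 833 CPM (1.62-fold, 1.46 to 1.79) and Il1rn at 11.4 against 14.3 CPM. With mature cells limited to those with more markers of their library's own identity, 34 and 63 cells, 4 members were higher: Il1b (2.52-fold), Il1r2 (9.61-fold), Il1rn (2.66-fold on 6 and 5 UMIs) and Il1rl1 (5 UMIs against 0, at least 3.70-fold). The shares of all genes above are those of the full mature gates, and none is given for this selection. Il18bp had 7 UMIs in 7 of 74 mature cells of the cDC1 library (7.15 CPM, 2.88 to 14.7) and 17 UMIs in 1969 resting cells (0.672 CPM), below the minimum in both.

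Between cycling and resting cells, none of the 5 members measured in the cDC1 library passed 2-fold (9.62% of genes higher, 0.235% lower). In the cDC2 library 1 of 8 did (7.24% higher, 0.944% lower): Il1rn stood at 3.64 CPM on 21 UMIs (2.25 to 5.57) against 10.4, 2.85-fold lower. The macrophage markers summed to 56.0 CPM in those cycling cells and 275 CPM in resting cDC2, and their part was not tested. Il1rl1 stood at 51.3 CPM in cycling and 82.1 CPM in resting cDC2.

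Of the 47 symbols listed for the wider pathway, 43 were matched. Between the libraries, 9 of the 29 measured were at least 2-fold higher among cDC2 library cells and none lower, with a median log2 ratio of 0.79. Over all genes measured, 7.79% were higher and 5.51% lower, with a median log2 ratio of 0.05. Among receptors, the IL-36 receptor gene Il1rl2 was 13.8-fold higher, the IL-18 receptor subunits Il18rap and Il18r1 12.2-fold and 4.41-fold. Mefv, which encodes the inflammasome sensor pyrin, was 9.31-fold higher, the inflammatory caspase gene Casp4 6.33-fold and the NF-kB cofactor gene Nfkbiz 3.09-fold. Between the resting states 12 of 29 were higher in cDC2 and none lower (9.63% of all genes measured higher, 6.19% lower). There Il18rap had 350 UMIs against 5 (32.8 against 0.198 CPM) and Il18r1 stood at 12.2 against 0.632 CPM, while the ligand Il18 lay within 2-fold.

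In mature cells the pathway list held both higher and lower genes. In the cDC1 library 8 of 26 were higher and 4 lower than in resting cells (16.0% of all genes measured higher, 15.3% lower). In the cDC2 library 2 of 29 were higher and 6 lower (15.2% of all genes measured higher, 16.7% lower). Il18r1 was higher in both libraries, at 26.6 CPM on 26 UMIs against 0.632 in the cDC1 library and at 28.4 CPM on 15 UMIs against 12.2 in the cDC2 library, whereas Il18 itself was lower in both. Traf6, the ubiquitin ligase below MyD88, was also higher in both (2.73-fold and 2.05-fold). Nlrp3, the inflammasome sensor, was 14.3 against 93.7 CPM in the cDC1 library and 49.2 against 146 CPM in the cDC2 library. Myd88 stood at 9.20 against 30.0 CPM and at 22.7 against 52.0 CPM, and both genes were lower in both libraries. In Ccr7-positive Fscn1-low cells of the cDC1 library, 2 of 26 were higher and 1 lower (5.73% of all genes measured higher, 4.61% lower). In those of the cDC2 library, 1 of 29 was lower (0.759% of all genes measured higher, 1.36% lower).

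The genes whose pattern was most like each member were sought by Pearson correlation of log2(CPM + 1) over 14 library-by-state sums, among 7781 genes. The sums of a library share its library and free RNA, so these are descriptions. Nearest to Il1b were Kdm6b (r = 0.91), Timp2 and Slc15a3 (both 0.89). Nearest to Il1rl1 were Edn1 (0.97) and the lectin genes Mgl2 (0.96) and Cd209a (0.94). Mgl2 and Cd209a are on the cDC2 marker list used for the gates, so their pattern over the states is partly set by the gating. Nearest to the antagonist Il1rn were Lilr4b (0.96), Plk2 (0.94) and the lysosomal protease gene Ctsd (0.94), and nearest to the decoy Il1r2 were the chemokine receptor gene Ccr1 (0.90), Nlrp3 (0.88) and Flot1 (0.86). For Il1a they were Ticam1 (0.91), Zmpste24 (0.86) and Maff (0.83), for Il18 Afdn, Scimp and Arhgap18 (0.92 to 0.91), for Il1r1 Ifrd1, Trim16 and Igsf9 (0.87 to 0.86) and for Il1rap Hdac4 (0.95), Plk3 (0.93) and Dgat2 (0.89).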

How the data were processed

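The authors deposited unnormalized UMI counts by gene and cell barcode. The authors made the count matrices with Cell Ranger 3.2 on mm10, per the submitters' processing notes, whereas software version 3.0.2 stands in the matrices per the file headers; Seurat is named in the notes without a role. The 10x Chromium kit v3.1, per the labels' protocols, counts 3′ ends.

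Cells with at least 500 genes, 1000 UMIs and at most 10% mitochondrial UMIs were kept (365 and 210 barcodes removed). No doublet caller was run, so doublets stayed in. Marker gates were applied in a fixed order, and the first match decided. The order was B cell, NK, T or ILC, fibroblast, basophil or mast (3 markers each), neutrophil, monocyte, macrophage (4 each) and mature (Fscn1 at 5 per 10000 UMIs, Ccr7 and 2 further markers). Then came cycling (5 markers), Ccr7-positive (2 UMIs), Cd7 Plac8 and resting cDC1 or cDC2 (4 identity markers, more than of the other kind). Cells near a cut were 121 and 217 with exactly 1 Ccr7 UMI and 9 and 20 with Fscn1 from 2 to 5 per 10000.

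UMIs were summed per state and scaled to CPM, with exact Poisson intervals, exact conditional binomial intervals for ratios and Clopper-Pearson intervals for shares (95%). A gene was measured at 10 CPM in at least 1 of the sums compared, and a count of 0 was set to 3 counts. All members were named, as were up to 6 called pathway genes of largest change per contrast and the 3 genes most like each member at 10 CPM or more in at least 2 sums; Myd88 and Nlrp3 in the cDC2 library, Ccr7 steps and marker steps were chosen after values were seen. The members and lists were chosen with earlier results of these data known. Of 31053 feature IDs, 30934 were matched to GENCODE M21. Alternatives used edgeR 4.0.16 for TMM scaling; scripts were tested on simulated data.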

Additional observations from a re-analysis of the deposited data

Results flagged for a closer look

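The barcodes left out by the cell filter, 365 of the XCR1 sort and 210 of the CD172a sort, are data outside the comparisons, and members stood above the level of 3 counts in them. In the cDC1 library they carried Il1a at 14.7 CPM, Il1b at 748, Il18 at 15.8, Il1r2 at 124 and Il1rap at 17.9. In the cDC2 library they carried Il1a at 31.3 CPM, Il1b at 1730, Il18 at 12.2, Il1rn at 53.9, Il1r2 at 318, Il1r1 at 6.95, Il1rap at 34.8 and Il1rl1 at 95.6. Il1b was lower in them than in the kept cells of each library (1232 and 3540 CPM), and Il1rn of the cDC2 library higher (21.7 CPM in kept cells).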

How the results depend on the processing

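No paired analysis was possible because each sort has 1 library. No member ratio that was called changed direction under any alternative run. Of 512 recomputed member ratios 468 stayed within the main counting interval, and 105 of 118 counts of members were within 1.5 times the main count. Shares of cells with a UMI were less stable: thinning to 5000 UMIs in place of 2000 moved 14 of 24.

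At a minimum of 1 CPM, the library comparison had 1137 genes higher and 798 lower (515 and 364 at 10 CPM), and with no minimum 2079 and 1737. For mature over resting cells either minimum gave 2406 higher and 1740 lower in the cDC1 library with 3 members higher, and 2298 higher in the cDC2 library with 1 member higher, since low genes enter. Without mitochondrial and ribosomal protein genes, 1564 genes were lower in mature cells of the cDC1 library (1019 before), and all log2 ratios shifted by -0.19 there; TMM shifted them by -0.14 in the cDC2 library. At 5% mitochondrial UMIs 0 members were higher in mature cells of the cDC1 library.

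With 3 macrophage markers, 69 genes and 0 members were lower in the macrophage gate (148 and 1 before), and 1 member, Il1rn, was higher in the monocyte gate; with 5 markers, 744 genes were higher, 231 lower and 3 members lower. With 1 Ccr7 UMI, Ccr7-positive cells had 212 genes higher, 45 lower and 0 members higher in the cDC1 library and 53 genes lower in the cDC2 library; with 3 UMIs 1 member was higher in the cDC2 library. With own-identity cells only, 4 members were higher between mature gates (1 with the full gates), and 0 were higher in mature or in Ccr7-positive cells of the cDC1 library. The cause was not tested where none is named. Mature gates hold 978497 and 528054 UMIs, so 3 counts there, the level set for a count of 0, stand for 3.07 and 5.68 CPM. The calls of Il1a, Il1r1 and Il1rap in mature cells of the cDC2 library lie below that level, at 3.79 CPM on 2 UMIs each.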
